A study of Mus musculus with 15 samples.

Results

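The Toll-like receptor genes *Tlr1*, *Tlr4*, *Tlr7* and *Tlr9*, the related receptor gene *Cd180*, and the signalling genes *Unc93b1*, *Myd88*, *Irak1*, *Irak4* and *Irf5* were followed through the RNA sequencing libraries of A20 cells and their Foxp1-mutant clones. These 10 genes were taken by symbol from a fixed list, and all 10 were matched by Ensembl identifier among the 41388 genes counted. A20 is a B-cell lymphoma line of BALB/c mice, and the transcription factor Foxp1 was disrupted in it with CRISPR/Cas9. The 5 lines were unedited A20 parental cells, clones E6.1 and E6.2 with a mutation in *Foxp1* exon 6, and clones E7.1 and E7.2 with a mutation in *Foxp1* exon 7. Each edited line was grown from 1 cell, so that an exon 6 or exon 7 group is 2 clones and a clone's own features cannot be told apart from its *Foxp1* mutation. No unedited clone that went through the same transfection, sorting and cloning was analysed here. Each line has 3 libraries, collected from separate passages, which makes 15 in all. Lines carry no other stated allele or treatment, and no Toll-like receptor ligand was given.

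Toll-like receptors recognise molecules of microbes and start an alarm signal inside the cell. Tlr1 works with Tlr2 on lipopeptides at the cell surface, Tlr4 senses lipopolysaccharide, and Cd180 is a Tlr4-like surface protein of B cells that lacks the signalling domain. Tlr7 and Tlr9 sit in endosomes, where they detect RNA and DNA, and Unc93b1 is the chaperone that carries them there. Most of these receptors pass the signal through the adaptor Myd88 to the kinases Irak4 and Irak1, which lead to NF-κB and to the transcription factor Irf5. In B cells this route drives proliferation and cytokine production.

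Libraries held 26328054 to 39181530 counted read pairs. The RNA of *Foxp1* itself was 138 ± 32.7 CPM (read pairs scaled to a normalized library size, the unit of all levels here; SD, n = 3) in parental cells and lower in the clones, with 43.0 ± 8.19 CPM in E7.2, 56.8 ± 13.0 in E7.1, 104 ± 4.60 in E6.1 and 106 ± 2.38 in E6.2. The fall passed the test in E7.1 (log2 fold change -1.29, adjusted p = 0.00688) and E7.2 (-1.69, adjusted p = 0.00116) but not in E6.1 (adjusted p = 0.765) or E6.2 (adjusted p = 0.417), and a frameshift need not lower the RNA. The summed level of 8 B-cell marker genes lay between 3121 and 4722 CPM in every library. That of 7 T-cell genes was at most 2.52 CPM and that of 5 fibroblast genes at most 0.674 CPM. Macrophage and monocyte genes summed to between 5.05 and 33.9 CPM, led by *Cd68*. Of this list *Lyz2* and *C1qa* were at 3 counts or fewer in all libraries, whereas *Adgre1* reached 7.56 CPM in parental cells. Dendritic cell genes summed to between 89.5 and 136 CPM, led by *Flt3* and *Bst2*. Of these *Siglech* was at 3 counts or fewer, whereas *Zbtb46* reached 6.28 CPM in E6.2. Replicate 3 of E6.2 and replicate 3 of E7.2 stood apart. In them 3275 and 2328 genes differed at least 2-fold from the mean of the other 2 libraries of their clone, as against 2317 in E6.2 replicate 1 and 359 to 1318 in the remaining libraries. The tests were repeated without both libraries. For the genes followed here, the calls and the changes of sign against parental cells in that fit are given. In bulk RNA, fewer cells that express a gene and less RNA of it per cell cannot be told apart.

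In parental cells, 9 of the 10 genes were expressed well above the counting floor. Levels of different genes were compared as CPM per kilobase of exon. *Unc93b1* was highest at 40.0 ± 3.57, followed by *Irf5* at 38.3 ± 2.89, and the libraries of these neighbours overlapped. *Irak1* at 31.8 ± 0.275 and *Tlr1* at 30.8 ± 2.23 came next and overlapped each other as well. *Cd180* stood alone at 17.8 ± 1.37. *Tlr4* at 8.82 ± 0.386 and *Tlr9* at 7.72 ± 0.920 overlapped, and *Myd88* at 4.34 ± 0.312 and *Irak4* at 1.84 ± 0.258 were lower than each gene before them in every parental library. The adaptor and the first kinase of the route were thus the lowest of the 9 genes per length, on a scale where *Irak1* was the third highest.

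**Figure D1:**
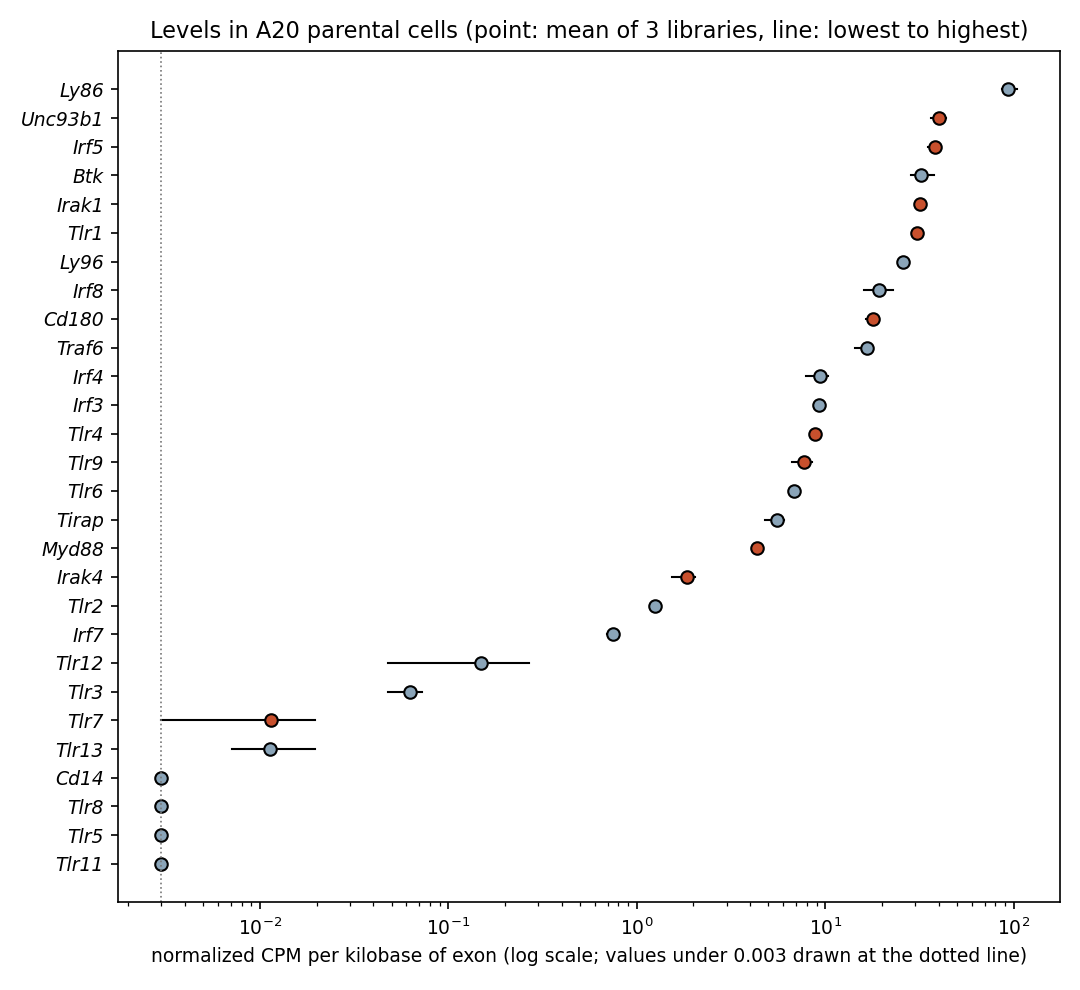
Levels in A20 parental cells of the 10 genes (red) and of 18 genes of the same pathway (blue), in normalized CPM per kilobase of exon on a log scale. Points are means and lines run from the lowest to the highest of 3 libraries, with values under 0.003 drawn at the dotted line. *Unc93b1* (40.0) and *Irf5* (38.3) lie at the top of the red points and *Tlr7* (0.0115) at the bottom.

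*Tlr7* (chromosome X of GRCm38, from 167304929 to 167330558) was the exception. It held 0 to 3 counts in each library and 13 in all 15 together, so it was at or under the floor of 3 counts in every line and was left out of the tests. The floor corresponded to between 0.0751 and 0.118 CPM, depending on the library, and covers counting error only. Other receptors of the family were at a like level, and *Tlr5*, *Tlr8* and *Tlr11* had a mean of 0 CPM in parental cells. Of the 8 Toll-like receptors outside the 10 genes, 4 were tested, and *Tlr6* at 6.83 and *Tlr2* at 1.24 CPM per kilobase were the highest of them in parental cells. The measured receptors were therefore *Tlr1*, *Tlr2*, *Tlr4*, *Tlr6* and *Tlr9*, together with low *Tlr12* and *Tlr3*.

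The co-receptors differed in the same way. *Ly86* encodes Md-1, the partner of Cd180, and was at 93.3 CPM per kilobase in parental cells. *Ly96* encodes Md-2, the partner of Tlr4, and was at 25.9. *Cd14*, which hands lipopolysaccharide to them in myeloid cells, had 0 CPM in parental cells.

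The genes lie on separate parts of the genome (GRCm38, positions from the deposited tables). *Tlr1* spans 64924811 to 64932761 of chromosome 5 on the minus strand. *Tlr4* spans 66827584 to 66930284 of chromosome 4, *Cd180* 102693558 to 102739629 of chromosome 13, *Unc93b1* 3935186 to 3949340 of chromosome 19, *Irak4* 94543643 to 94581815 of chromosome 15 and *Irf5* 29526625 to 29541869 of chromosome 6, all on the plus strand. *Tlr9* (106222598 to 106226883, plus strand) and *Myd88* (119335934 to 119341411, minus strand) share chromosome 9, and *Irak1* (74013914 to 74023918, minus strand) is on chromosome X like *Tlr7*. Counting took no account of strand, so read pairs from a gene and an overlapping neighbour on the opposite strand cannot be told apart. Such neighbours are *Mast4* for *Cd180*, *Acaa1a* for *Myd88*, *Twf1* for *Irak4* and *Tnpo3* for *Irf5*. *Tlr1* and *Tlr6* are close paralogs, and pairs that align to both were left out of the counts.

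Promoters are shown for *Cd180*, *Tlr1* and *Irf5*, because these genes shifted in both libraries that stand apart, *Cd180* and *Tlr1* to lower and *Irf5* to higher levels, as described further on. *Tlr4* and *Unc93b1* shifted in both as well, but no promoter sequence was available for them. Each sequence is 300 bases of GRCm38.p6 from RefSeq, from 250 bases before the start of transcription to 50 bases after it, read 5′ to 3′ on the gene's strand, with each CG dinucleotide in capitals.
*Cd180* (chr13:102693308-102693607, plus strand): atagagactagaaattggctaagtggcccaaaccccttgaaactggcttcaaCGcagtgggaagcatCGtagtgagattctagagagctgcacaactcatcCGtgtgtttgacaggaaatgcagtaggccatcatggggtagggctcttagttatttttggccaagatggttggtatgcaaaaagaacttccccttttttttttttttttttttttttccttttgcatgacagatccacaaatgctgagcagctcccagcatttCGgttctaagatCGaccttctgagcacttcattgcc
*Tlr1* (chr5:64933509-64933808, minus strand): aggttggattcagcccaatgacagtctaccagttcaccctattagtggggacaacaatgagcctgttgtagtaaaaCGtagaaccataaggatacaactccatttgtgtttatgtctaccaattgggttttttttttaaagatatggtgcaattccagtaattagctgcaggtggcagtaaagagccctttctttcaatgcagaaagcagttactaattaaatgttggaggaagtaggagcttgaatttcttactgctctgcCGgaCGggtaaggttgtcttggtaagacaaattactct
*Irf5* (chr6:29526375-29526674, plus strand): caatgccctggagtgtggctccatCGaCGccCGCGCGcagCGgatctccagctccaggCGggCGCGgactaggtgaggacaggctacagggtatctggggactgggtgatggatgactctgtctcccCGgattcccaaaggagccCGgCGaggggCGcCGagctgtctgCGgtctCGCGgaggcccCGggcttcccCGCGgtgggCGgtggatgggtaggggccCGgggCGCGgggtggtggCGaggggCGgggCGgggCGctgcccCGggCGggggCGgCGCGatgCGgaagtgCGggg
The *Cd180* window holds 5 CG dinucleotides and the *Irf5* window 35. The *Tlr1* window shown holds 3, and a second *Tlr1* window, at another start, holds 9. The window shown lies outside the span of *Tlr1* given above, whereas the second (chr5:64932650-64932949) overlaps its end. The median over 32851 windows of the same length is 7, with 43.6% of them at 5 or fewer and 6.95% at 35 or more. These windows, called all windows below, do not cover every chromosome. The table of promoters had entries for 7 of the 10 genes, with 10 windows in all. The windows of *Cd180* overlap each other almost wholly, as do those of *Irak1*, so the 10 are not separate sequences. The forkhead motif TGTTTAC was searched on both strands and was in 0 of these 10 windows, as against 3.65% of all windows, and the Ets motif GAGGAAG was in 2 of them, 1 of *Tlr1* (the window shown) and that of *Tlr9*, as against 13.6%. The motifs do not overlap each other, and a match or its absence describes these letters in this window and nothing about binding.

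None of the 9 tested genes passed the test in a clone against parental cells. The count of genes called at an adjusted p under 0.05 in edgeR's quasi-likelihood test was 0 of 9 in each clone, while over all 13904 genes tested 1.22% were called in E7.1, 1.17% in E6.2, 0.324% in E6.1 and 0.295% in E7.2. DESeq2 called 0 of 9 in each clone as well, where it called between 1.11% and 8.34% of all genes. An unadjusted p under 0.05 in edgeR was reached by 2 genes in E6.2, 2 in E7.1, 0 in E6.1 and 0 in E7.2. In the same order 1815, 2774, 933 and 1853 of all 13904 genes reached it. With so few calls over all genes, a count of 0 in 9 is near the background. The 36 log2 fold changes lay between -0.80 and 0.67, with standard errors between 0.10 and 0.36. Their median was 0.13 in E7.2, 0.06 in E7.1 and E6.1 and -0.03 in E6.2, and the medians over all genes tested lay between -0.02 and 0.06 in the same clones.

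**Figure D2:**
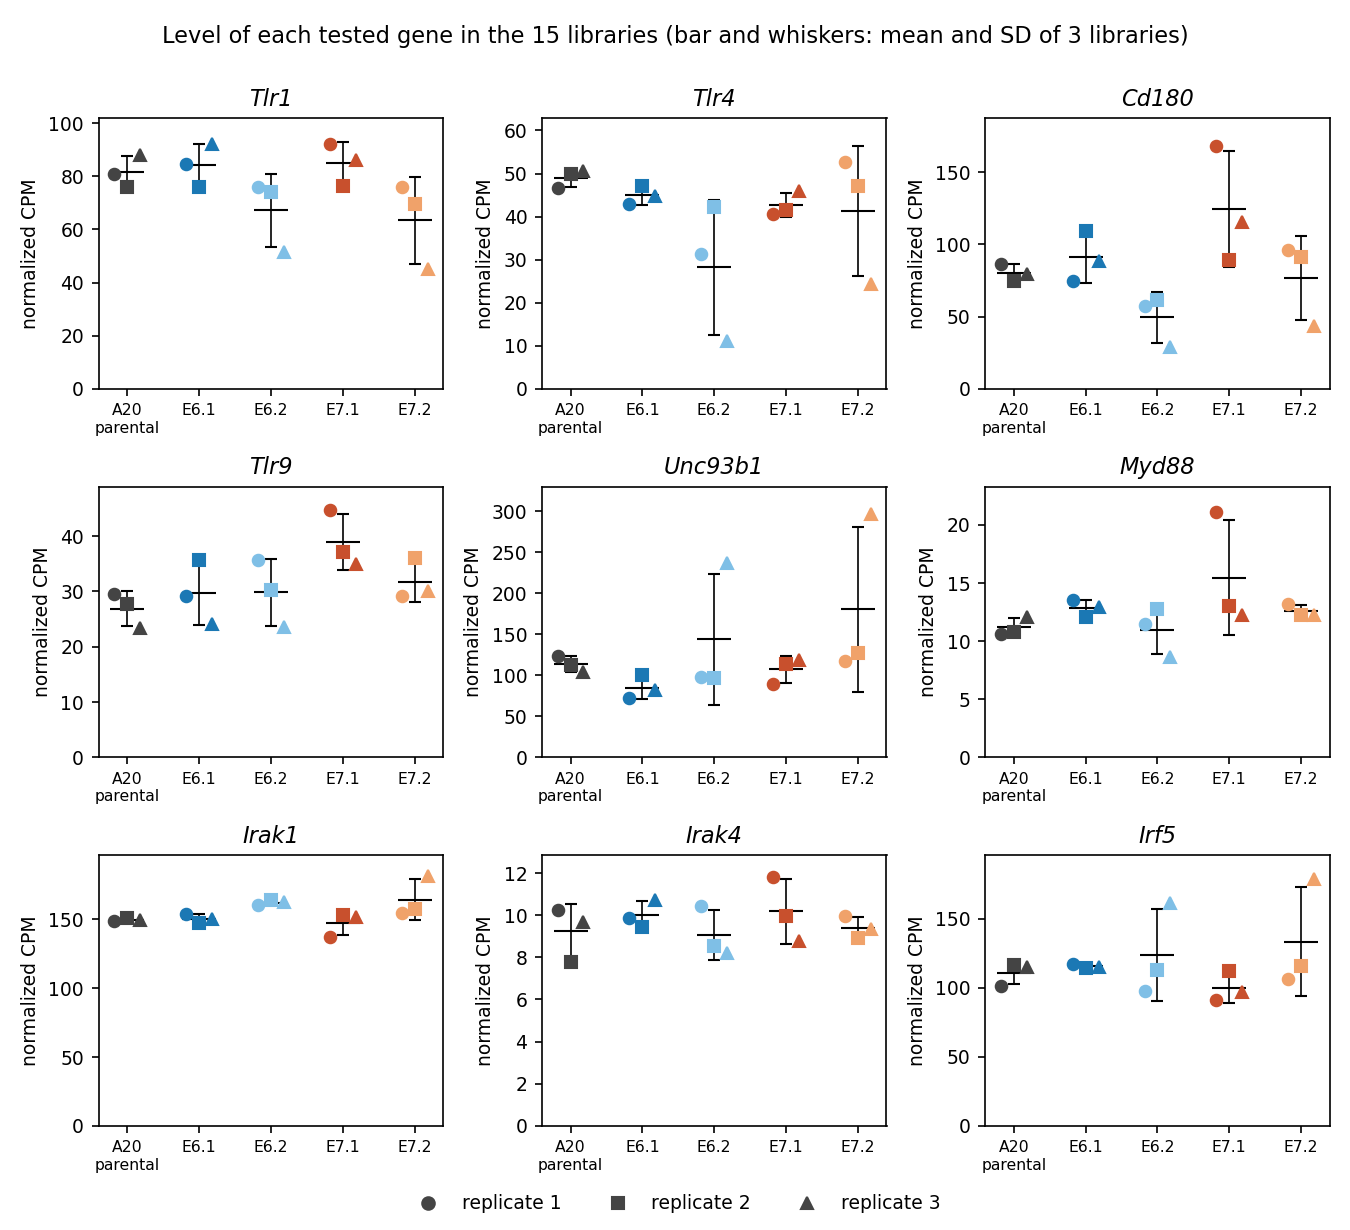
Normalized CPM of the 9 tested genes in each of the 15 libraries, with the lines along the horizontal axis, a marker shape for each replicate and the mean and SD of 3 libraries in black. The third libraries of both E6.2 and E7.2 (triangles) lie below the rest of their clones for *Tlr4* (11.2 and 24.3) and *Cd180* (29.2 and 43.6), and above them for *Unc93b1* (236 and 297).

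Among the surface receptors, *Tlr1* was at 81.1, 76.1 and 87.9 CPM in parental replicates 1 to 3, at 84.8, 76.0 and 92.1 in E6.1 and at 92.2, 76.4 and 86.1 in E7.1. These lines overlapped throughout. E6.2 had 76.1, 74.1 and 51.5 CPM and E7.2 had 76.0, 69.6 and 44.9, so that in each the third library was the lowest. All libraries of both lay below the parental ones, E6.2 only narrowly (highest 76.13, lowest parental 76.15 CPM). The share of all genes whose libraries lie apart from the parental ones in this way was not worked out, here or for the genes below. The log2 fold change of *Tlr1* was -0.28 (SE 0.19, adjusted p = 0.538) in E6.2 and -0.36 (SE 0.19, adjusted p = 0.415) in E7.2. With E6.2 and E7.2 reduced to 2 libraries each, the values were -0.13 and -0.13.

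*Tlr4*, the lipopolysaccharide receptor, was at 46.6, 50.0 and 50.5 CPM in parental cells. All libraries of E6.2, at 31.4, 42.1 and 11.2 CPM, lay below these, as did those of E7.1 at 40.7, 41.6 and 46.0. E6.1 had 42.9, 47.2 and 44.9 CPM and E7.2 had 52.7, 47.2 and 24.3, and both overlapped the parental range. The log2 fold change in E6.2 was -0.80 (SE 0.35, adjusted p = 0.359), and with E6.2 and E7.2 reduced to 2 libraries each it was -0.42 (SE 0.13, adjusted p = 0.121).

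*Cd180* varied most between libraries, from 29.2 to 168 CPM, a ratio of 5.76. Parental cells had 86.8, 74.5 and 79.8 CPM, and E6.1 had 74.6, 109 and 88.8. All libraries of E7.1, at 168, 89.4 and 116 CPM, lay above the parental ones, and all libraries of E6.2, at 57.5, 61.7 and 29.2 CPM, lay below them. E7.2 had 95.9, 91.3 and 43.6 CPM and so spanned the parental range. The log2 fold changes against parental cells were 0.63 (SE 0.32, adjusted p = 0.285) in E7.1 and -0.70 (SE 0.32, adjusted p = 0.371) in E6.2. With E6.2 and E7.2 reduced to 2 libraries each, the values were 0.65 and -0.44.

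*Tlr9*, the endosomal DNA sensor, was at 29.5, 27.8 and 23.3 CPM in parental cells. E7.1 was the clone with the highest values, at 44.7, 37.1 and 35.0 CPM, and its libraries did not overlap those of parental cells. E6.1 had 29.1, 35.6 and 24.2 CPM, E6.2 had 35.7, 30.2 and 23.6, and E7.2 had 29.1, 36.1 and 30.1. The log2 fold change in E7.1 was 0.53 (SE 0.18), with the lowest adjusted p of the 36 comparisons (0.124, unadjusted p = 0.0111).

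*Unc93b1*, the chaperone of *Tlr9*'s product, was at 124, 113 and 104 CPM in parental cells. All libraries of E6.1 were lower, at 72.1, 99.9 and 82.2 CPM, with a log2 fold change of -0.42 (SE 0.36, adjusted p = 0.947). E7.1 had 88.9, 114 and 118 CPM. In E6.2, replicates 1 and 2 had 97.9 and 97.1 CPM and replicate 3 had 236. In E7.2, replicates 1 and 2 had 117 and 127 CPM and replicate 3 had 297. The log2 fold change of 0.67 in E7.2 (SE 0.36, adjusted p = 0.429) was 0.14 with E6.2 and E7.2 reduced to 2 libraries each, and that of E6.2 turned from 0.34 to -0.23.

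The adaptor *Myd88* was at 10.6, 10.8 and 12.1 CPM in parental cells. Its highest value was in E7.1 replicate 1, at 21.2 CPM, while replicates 2 and 3 of that clone had 13.0 and 12.3. E6.1 had 13.5, 12.1 and 12.9 CPM, E6.2 had 11.5, 12.8 and 8.66, and E7.2 had 13.2, 12.3 and 12.3. All libraries of E7.1 and of E7.2 lay above the parental ones, by little at their lowest (12.3 CPM, beside 12.1 in the highest parental library). The log2 fold change in E7.1 was 0.47 (SE 0.21, adjusted p = 0.222), and without E7.1 replicate 1 it was 0.18.

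The kinases were the steadiest. *Irak1* ranged from 137 to 182 CPM over all 15 libraries, a ratio of 1.32, and its mean was between 147 and 164 CPM in every line. Its standard error was 0.10 on the log2 scale in each clone, the smallest of the 9 genes. For *Irak1* too, all libraries of E6.2 (from 160 CPM) and of E7.2 (from 154 CPM) lay above the parental ones (up to 151 CPM). *Irak4* ranged from 7.77 to 11.8 CPM with means between 9.06 and 10.2. The largest log2 fold change of either kinase in a clone was 0.14, that of *Irak4* in E7.1.

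*Irf5* was at 101, 117 and 115 CPM in parental cells and at 117, 114 and 115 in E6.1. E7.1 had 91.0, 112 and 97.0 CPM. The third libraries of E6.2 (161 CPM, beside 97.7 and 113) and of E7.2 (179 CPM, beside 106 and 116) were the only ones above 120 CPM. The log2 fold change was 0.16 (SE 0.20, adjusted p = 0.754) in E6.2 and 0.27 (SE 0.20, adjusted p = 0.558) in E7.2. With E6.2 and E7.2 reduced to 2 libraries each, the values were -0.08 and 0.03.

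**Figure D3:**
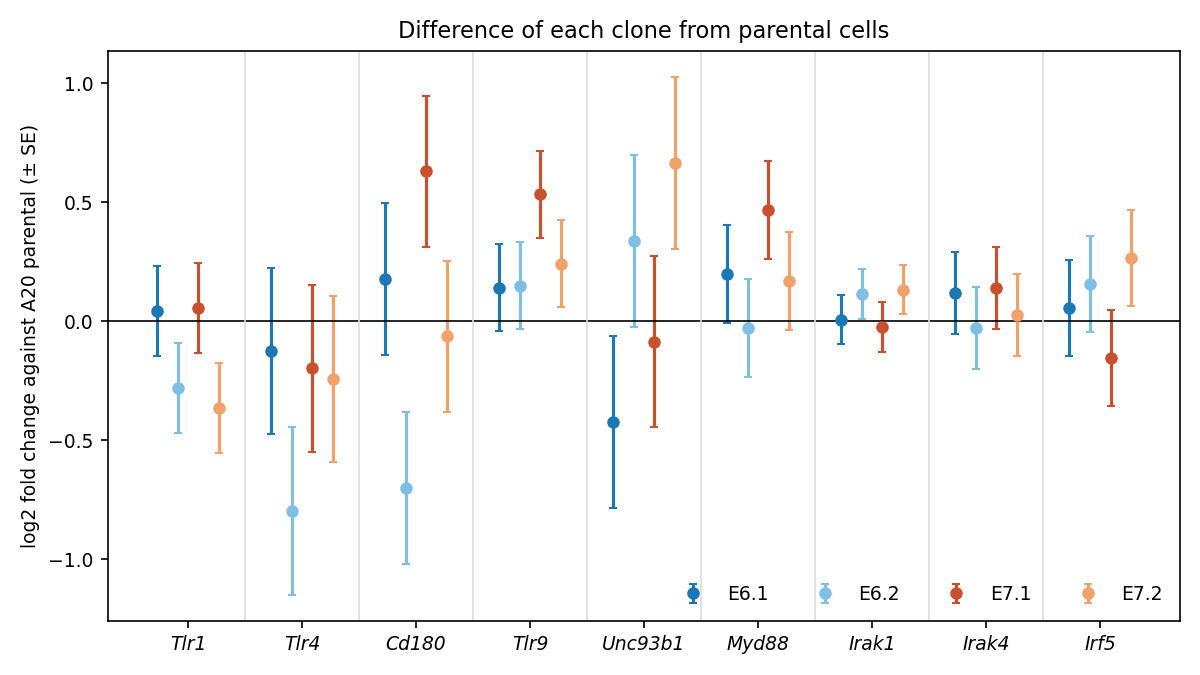
Log2 fold change of each of the 9 tested genes in each clone against A20 parental cells, with its standard error, from 1 fit of all 15 libraries. Values run from -0.80 (*Tlr4* in E6.2) to 0.67 (*Unc93b1* in E7.2), and 0 of the 36 passed the test.

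The clones were then compared with each other, which asks whether these particular clones differ. The p values rest on the spread between libraries of the same line. They do not measure the spread between clones of 1 exon, so a difference between exons was not tested. Between the E7 and the E6 clones 0 of the 9 genes were called by edgeR (1 at an unadjusted p under 0.05, 0 by DESeq2), as against 12.1% of all genes tested by edgeR and 19.3% by DESeq2. In this comparison 4219 of all 13904 genes reached an unadjusted p under 0.05 in edgeR. The median log2 difference of the 9 genes was 0.23, beside -0.03 over all genes tested. *Cd180* had the largest, with a log2 difference of 0.54 (SE 0.23, adjusted p = 0.122). In the test across all 5 lines 0 of 9 were called by edgeR as against 6.28% of all genes, and *Cd180* had the lowest p (unadjusted p = 0.0159, adjusted p = 0.105). DESeq2 called 1 of the 9 across lines, *Cd180*, as against 22.5% of all genes.

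Of the 6 pairs of clones, 1 gave a call. *Cd180* was higher in E7.1 than in E6.2, with a log2 difference of 1.33 (SE 0.32, adjusted p = 0.0172 from edgeR), and the 3 libraries of E7.1 (89.4 to 168 CPM) did not overlap those of E6.2 (29.2 to 61.7 CPM). This was 1 of 9 genes in a pair where 16.9% of all genes were called. The call was lost without E7.1 replicate 1 (1.06, adjusted p = 0.0831) and was kept in the other 14 fits that left out 1 library, with adjusted p between 0.00472 and 0.0408. In the other pairs 0 of 9 were called by edgeR and by DESeq2: the shares over all genes were 1.24% for E6.2 against E6.1, 3.24% for E7.1 against E6.1, 0.352% for E7.2 against E6.1, 2.24% for E7.2 against E6.2 and 0.59% for E7.2 against E7.1 in edgeR, and in the same order 3.22%, 10.9%, 1.7%, 6.96% and 2.06% in DESeq2. The numbers of the 9 genes at an unadjusted p under 0.05 in edgeR were 1, 1, 2, 0 and 2, beside 1798, 3101, 1614, 2660 and 1846 of all 13904 genes. *Unc93b1* in E7.2 against E6.1 had the second largest difference, 1.09 (SE 0.36, adjusted p = 0.312), and it was 0.56 with E6.2 and E7.2 reduced to 2 libraries each.

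Some of these genes stood apart in the same direction in the third libraries of E6.2 and E7.2. A gene was counted when it was at least 0.5 higher, or at least 0.5 lower, on the log2 scale in both of these libraries than in the mean of the other 2 libraries of the same clone, a limit chosen after the values were seen. *Unc93b1* (1.28 in E6.2 and 1.28 in E7.2) and *Irf5* (0.62 and 0.69) were higher in both, 2 of 9 genes, as against 11.9% of all genes tested. *Tlr4* (-1.70 and -1.04), *Cd180* (-1.03 and -1.10) and *Tlr1* (-0.54 and -0.69) were lower in both, 3 of 9, as against 10.2% of all genes. *Tlr9* (-0.47 and -0.11), *Myd88* (-0.48 and -0.05), *Irak1* (0.00 and 0.22) and *Irak4* (-0.20 and -0.01) met neither limit. The surface receptor genes *Tlr2* (-0.69 and -0.00) and *Tlr6* (-0.37 and -0.77), which are not among the 9, met neither limit.

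**Figure D4:**
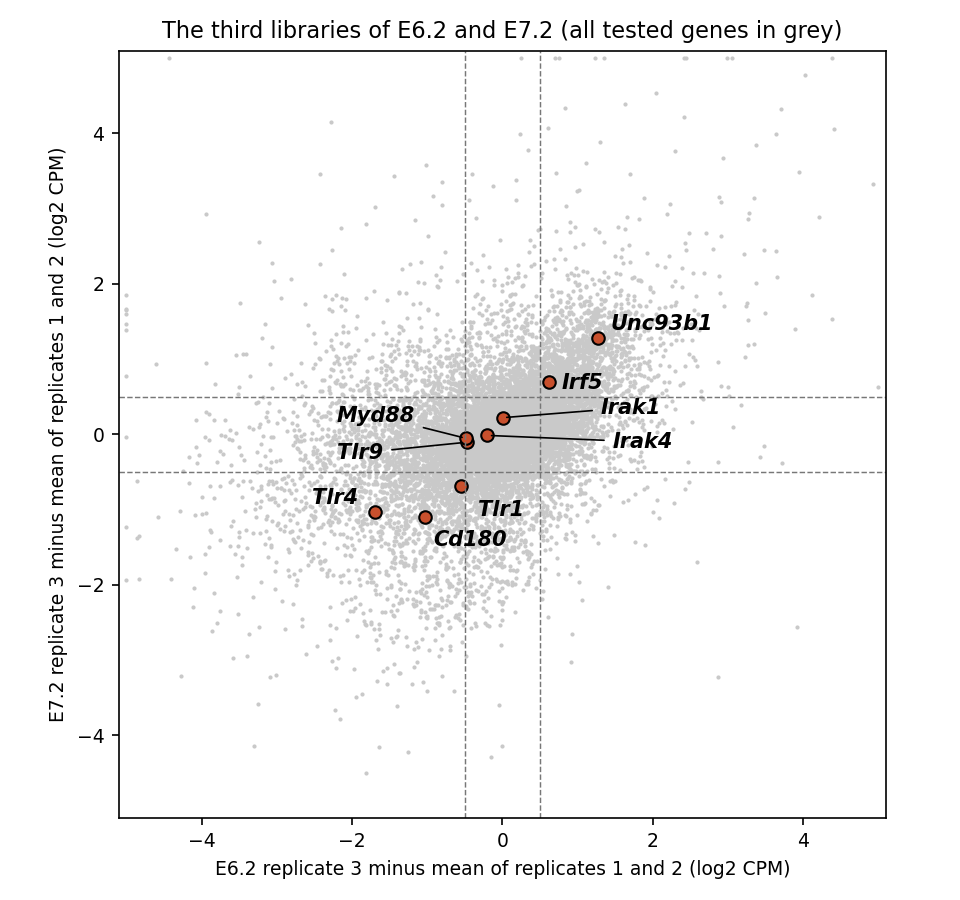
Difference of replicate 3 from the mean of replicates 1 and 2 in E6.2 (horizontal) and in E7.2 (vertical), in log2 CPM, for all 13904 genes tested (grey, beyond 5 drawn at 5) and the 9 genes (red), with dashed lines at 0.5 above and below 0. *Tlr4*, *Cd180* and *Tlr1* lie at the lower left, and *Unc93b1* and *Irf5* at the upper right.

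Of 64 tested pathway genes outside the 9, 8 (12.5%) were at least 0.5 higher and 6 (9.38%) at least 0.5 lower in both libraries, which is near the 11.9% and 10.2% of all genes. Higher were the endosomal proteases *Ctsl* (0.86 in E6.2 and 1.76 in E7.2) and *Ctsb* (0.75 and 0.78), the chaperone *Hsp90b1* (0.98 and 1.10), the interferon regulatory factor *Irf7* (0.84 and 1.69), the cytokine brake *Socs1* (1.24 and 1.67), *Tnip1* (1.18 and 0.68), *Otulin* (0.81 and 0.80) and the chemokine *Ccl5* (1.17 and 0.62). Lower were the adaptors *Tirap* (-0.65 and -0.74) and *Pik3ap1* (-0.97 and -1.07), the chaperone *Cnpy4* (-0.67 and -0.69), the costimulatory genes *Cd40* (-1.09 and -0.51) and *Cd80* (-2.08 and -1.004), and the chemokine *Cxcl10* (-2.26 and -3.01). Of the 8 B-cell marker genes only *Pax5*, picked by name, is given here, and it was lower (-1.60 and -1.32). The same differences are not given for the others, so *Pax5* does not stand for the list. The summed level of those 8 genes lay between 3121 and 4034 CPM in E6.2 and between 3766 and 4722 in E7.2. In parental cells it lay between 3254 and 3758 CPM. Among genes chosen after their values were seen, the DNA synthesis genes *Rrm2* (-1.86 and -3.45) and *Tyms* (-1.40 and -2.34) were lower and the ribosomal protein genes *Rpl13a* (1.66 and 1.75) and *Rps14* (1.57 and 1.61) were higher. The part of these shifts in the values of the 9 genes was not tested.

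Without those 2 libraries the spread shrank and more genes passed the test, both among the 9 and overall. This fit, with 14284 genes tested, was chosen after the libraries were seen to stand apart. In E7.1 against parental cells *Tlr9* (log2 fold change 0.56, SE 0.16, adjusted p = 0.0340) and *Cd180* (0.65, SE 0.19, adjusted p = 0.0385) were called, 2 of 9, as against 15.2% of all genes. Between the E7 and E6 clones *Cd180* (0.58, SE 0.15, adjusted p = 0.0123) and *Unc93b1* (0.36, SE 0.11, adjusted p = 0.0249) were called, as against 33.1% of all genes. *Cd180* was called in E7.1 against E6.2 (1.09, adjusted p = 0.00407), where 34.9% of all genes were, and *Tlr4* in E7.2 against E6.2 (0.48, adjusted p = 0.0402), where 17% were. Across the 5 lines *Cd180* was called (adjusted p = 0.0215), as against 28.6% of all genes. With 9 genes, counts of 1 or 2 are near or under what these shares of all genes would give.

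E7.1 replicate 1 was a further library on which values of *Cd180* and *Myd88* depended. Of the 9 genes it held the highest level of *Tlr1*, *Tlr9*, *Cd180*, *Myd88* and *Irak4* and the lowest of *Irak1* and *Irf5*. The share of all genes at an extreme in this library was not worked out. It was 0.73 above the mean of the other 2 libraries of E7.1 on the log2 scale for *Cd180* and 0.74 for *Myd88*. For *Tlr1*, *Tlr9*, *Irak4*, *Irak1* and *Irf5* the difference from that mean lay between -0.20 and 0.34. The chaperone *Hsp90b1* was 1.38 above that mean.

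The remaining pathway genes came from lists of receptors, co-receptors and chaperones, adaptors, kinases, ubiquitin ligases and other brakes, interferon regulatory factors, and transcriptional outputs. Of the 64 tested, 0 were called in E6.1 and in E7.2, 2 in E6.2 and 1 in E7.1 against parental cells, beside 0.324%, 0.295%, 1.17% and 1.22% of all genes. At an unadjusted p under 0.05 the numbers were 3, 13, 14 and 17, beside 933, 1853, 1815 and 2774 of all 13904 genes. DESeq2 called 0, 1, 3 and 7, beside 1.11%, 1.83%, 2.86% and 8.34% of all genes. Between the E7 and E6 clones 9 were called, 5 higher and 4 lower, with a median log2 difference of -0.04 over the 64 genes. The share called, 14.1%, is near the 12.1% of all genes. Across the 5 lines 4 (6.25%) were called, beside 6.28% of all genes, namely *Irf4*, *Cd80*, *Tlr2* and *5430427O19Rik*.

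The interferon regulatory factor *Irf4*, which drives B cells toward plasma cells, was the firmest of these calls. It was at 44.2 ± 5.98 CPM in parental cells and at 14.2 ± 3.73 in E6.2, a fall by 1.64 on the log2 scale (SE 0.25, adjusted p = 0.00333), which was called in all 15 fits that left out 1 library but had an adjusted p of 0.0514 in a fit of the 6 libraries compared. E7.2 had 57.4 ± 17.5 CPM, E7.1 35.0 ± 6.87 and E6.1 34.2 ± 7.28. Between the E7 and E6 clones *Irf4* differed by 1.02 (SE 0.18, adjusted p = 0.00472), again in all 15 such fits. The means of E7.1 and E6.1 lay close together, so this difference rested on E7.2 and E6.2. *Irf9*, a partner in the interferon response, was lower in the E7 clones by 0.50 (adjusted p = 0.0480), a call lost in 13 of the 15 fits. *Irf2* and *Irf8* were the highest of this list per length in parental cells, at 30.1 and 19.2 CPM per kilobase, and neither was called in a clone.

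Among co-receptors and chaperones, *Tasl*, listed as *5430427O19Rik*, encodes an adaptor that recruits Irf5 to the endosome. It was at 30.9 ± 3.77 CPM in parental cells and 17.7 ± 3.35 in E6.2, and fell by 0.80 on the log2 scale (SE 0.16, adjusted p = 0.0254). This call was lost without parental replicate 1, parental replicate 3, E6.2 replicate 1 or E6.2 replicate 3, with adjusted p up to 0.125, and in a fit of the 6 libraries compared (adjusted p = 0.316). *Hsp90b1*, the chaperone that most Toll-like receptors need to fold, was higher in the E7 than in the E6 clones by 1.03 (SE 0.30, adjusted p = 0.0393). Its highest parental library had 505 CPM and its highest E7.1 library 1373 CPM, and 11 of the 15 fits without a library lost the call. The proteases *Ctss* (154) and *Lgmn* (136), which cut endosomal receptors into their active form, were the highest of the list in parental cells in CPM per kilobase. Neither was called in a clone.

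Of the 12 tested kinases, *Btk*, which signals downstream of the B-cell receptor and of Toll-like receptors, was higher in the E7 than in the E6 clones by 0.41 (SE 0.11, adjusted p = 0.0332), and *Chuk*, which encodes a subunit of the IκB kinase, was lower by 0.44 on the log2 scale (log2 difference -0.44, SE 0.12, adjusted p = 0.0302). Each call was lost in 9 of the 15 fits that left out 1 library. *Tab2* was at 53.3 and *Chuk* at 50.5 CPM per kilobase in parental cells, the highest of the list. The adaptor *Ticam1*, which carries the Myd88-independent signal of Tlr3 and Tlr4, was higher in the E7 clones by 0.66 (SE 0.19, adjusted p = 0.0373), a call lost in 9 of the 15 fits. *Traf6* at 16.6 and *Pik3ap1* at 12.9 CPM per kilobase were the highest of the 8 adaptors in parental cells. The 9 tested brakes, led by *Nfkbia* (57.6) and *Otulin* (33.1), gave 0 calls between the E7 and E6 clones (1 at an unadjusted p under 0.05, 0 by DESeq2). Over all genes edgeR called 12.1% and DESeq2 19.3%, and 4219 of 13904 reached an unadjusted p under 0.05 in edgeR. With 9 genes, a count of 0 is near these shares.

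Of the 17 genes listed as outputs, 11 were tested, and *Il6*, *Il12b* and *Ifnb1* had 0 CPM in parental cells. *Il10* (13.2) and *Nfkbid* (8.47) were the highest in CPM per kilobase. The activation marker *Cd69* was at 13.5 ± 2.69 CPM in parental cells and fell in E7.1 to 4.69 ± 1.37, by 1.53 on the log2 scale (SE 0.31, adjusted p = 0.0387). That call was lost in 8 of the 15 fits, among them those without parental replicate 2 or 3 or E7.1 replicate 1 or 3, with adjusted p up to 0.219. In the E7 clones *Cd69* was lower than in the E6 clones by 0.71 (adjusted p = 0.0491) and the costimulatory gene *Cd80* by 1.65 (adjusted p = 0.0253). *Il10* was higher in the E7 than in the E6 clones by 0.80 (adjusted p = 0.0466). These calls were lost in 11, 6 and 10 of the 15 fits. *Cd80* was low throughout, at 1.19 ± 0.0739 CPM in parental cells and 2.61 ± 0.161 in E6.1, its highest line. E6.2, at 0.523 ± 0.409 CPM, was near E7.1 (0.316 ± 0.176) and E7.2 (0.428 ± 0.236). *Il10* was at 17.3 ± 9.08 CPM in parental cells and had a lower mean in each clone. Its means were 12.5 CPM in E7.1, 14.8 in E7.2, 9.05 in E6.1 and 6.71 in E6.2, and no clone had a call against parental cells.

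Genes that start within 2 Mb of each tested gene were looked at beside it. Depending on the gene, 2 to 91 neighbours were tested, and their median log2 fold change lay between -0.28 and 0.24 over the 36 combinations of gene and clone. *Tlr9* in E7.1, at 0.53, had 63 such neighbours with a median of 0.14 and 0 calls. *Cd180* in E7.1, at 0.63, had 21 with a median of 0.01 and 1 call.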

How the data were processed

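RNA was sequenced from 5 A20 lines, the parental line and 4 *Foxp1* CRISPR clones, with 3 libraries per line from separate passages. The authors deposited raw counts, the number of read pairs per gene, for each library. According to the file headers and the submitters' processing notes, reads were aligned with HISAT (version not given in the sources used here) and counted with featureCounts 1.5.0 on a GRCm38 (mm10) annotation, without strand and in pairs. Of 41480 features, 92 were spike-ins with 0 counts. They were left out. Depth was 26328054 to 39181530 counts per library, and the floor of 3 counts covers counting error only.

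The genes and the lists of pathway and marker genes were chosen with earlier results of these data known, and so were the tests. With edgeR 4.0.16 (R 4.3.3), filterByExpr kept 13904 genes, TMM set the library sizes, and 1 quasi-likelihood model (glmQLFit, glmQLFTest) with the line as factor was fitted to all 15 libraries. Each clone was compared with parental cells, the E7 with the E6 clones and each clone with each other, and a joint test with 4 degrees of freedom compared all 5 lines, which makes 12 comparisons. Comparisons with parental cells share the parental libraries. Benjamini-Hochberg adjustment ran over all genes of a comparison, and adjusted p values below 0.05 were taken as calls, whatever the fold change. The model was tested on simulated data. CPM are TMM-normalized, and levels between genes were compared per kilobase of the exon length in the tables. Deviations of libraries are differences of log2 CPM with a prior count of 2.

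Pathway genes were named when called in a clone against parental cells, between the E7 and E6 clones or across the 5 lines, or when among the 2 highest of their list per kilobase. Genes with the most similar pattern were to be named for a gene of the 10 called across lines, and there was none. Alternatives were DESeq2's size factors in edgeR, no filter, DESeq2 1.42.0, a replicate block, a fit of the 6 libraries compared, each library left out in turn and, added after the data were seen, E6.2 and E7.2 with 2 libraries each. Symbols were matched by Ensembl identifier for 40254 of 41388 genes, and promoters came from RefSeq (GRCm38.p6).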

Additional observations from a re-analysis of the deposited data

Results flagged for a closer look

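These results were flagged because the effects of 2 clones, or of the 2 pairs of clones, against parental cells differed from each other in the edgeR test of the difference itself. Values are log2 differences, and no explanation was tested. *Cd180* differed by 1.33 between E7.1 and E6.2, higher in 3 of 3 libraries of E7.1 than in each library of E6.2. In the same pair *Tlr2* differed by 0.85, *Tlr6* by 0.95, *Pik3ap1* by 1.08, *Btk* by 0.67, *Tasl* (*5430427O19Rik*) by 0.52 and *Irf4* by 1.30, while *Irf9* differed by -0.67, *Irf1* by -0.89 and *Cd69* by -1.32. Between the E7 and the E6 clones *Irf4* differed by 1.02, *Hsp90b1* by 1.03, *Il10* by 0.80, *Ticam1* by 0.66, *Btk* by 0.41, *Chuk* by -0.44, *Irf9* by -0.50, *Cd69* by -0.71 and *Cd80* by -1.65. Of these calls between the E7 and E6 clones, only that of *Irf4* was kept in every fit that left out 1 library. E6.2 against E6.1 gave -1.34 for *Tlr2*, -0.88 for *Tasl* and -1.27 for *Irf4*, 2 clones with a mutation in the same exon. E7.1 against E6.1 gave -1.28 for *Irak2* and -3.03 for *Cd80*, and E7.2 against E6.2 gave 2.02 for *Irf4*. Of the 9 tested genes, only *Cd180* is among these. Of the 64 other pathway genes, 9 (14.1%) were called in E7.1 against E6.2, beside 16.9% of all genes. Between the E7 and E6 clones 9 (14.1%) were called, beside 12.1%. E6.2 against E6.1 gave 3 (4.7%), beside 1.24%. E7.1 against E6.1 gave 2 (3.1%), beside 3.24%, and E7.2 against E6.2 gave 1 (1.6%), beside 2.24%.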

How the results depend on the processing

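Counts of the 9 genes called were the same under DESeq2's size factors in edgeR, and in most other alternatives. In the test across all 5 lines 1 gene, *Cd180*, was called with no filter on low counts, with DESeq2 and with E6.2 and E7.2 at 2 libraries each, in place of 0. With E6.2 and E7.2 at 2 libraries each, 2 were called in E7.1 against parental cells, 2 between the E7 and E6 clones and 1 in E7.2 against E6.2, in place of 0. When each library was left out in turn, the number was 0 to 1 between the E7 and E6 clones (*Unc93b1* at 0.63, adjusted p = 0.0443, without E6.2 replicate 3, and *Cd180* at 0.71, adjusted p = 0.0247, without E7.2 replicate 3), 0 to 1 across the lines (*Cd180* without E7.2 replicate 3) and 0 to 1 for E7.1 against E6.2 (0 without E7.1 replicate 1). Some log2 fold changes, none of which were called in these fits, changed sign. Over the fits that left out 1 library, *Tlr1* ranged from -0.021 to 0.115 in E6.1 and -0.0061 to 0.127 in E7.1, *Tlr4* from -0.451 to 0.063 in E7.2, *Tlr9* from -0.0104 to 0.271 in E6.1 and -0.011 to 0.318 in E6.2, *Cd180* from -0.25 to 0.26 in E7.2, *Unc93b1* from -0.20 to 0.56 in E6.2 and -0.16 to 0.0352 in E7.1, *Myd88* from -0.16 to 0.14 in E6.2, *Irak1* from -0.0070 to 0.0223 in E6.1 and -0.051 to 0.027 in E7.1, *Irak4* from -0.154 to 0.0664 in E6.2 and -0.0789 to 0.133 in E7.2, and *Irf5* from -0.0085 to 0.0941 in E6.1 and -0.059 to 0.289 in E6.2. With E6.2 and E7.2 at 2 libraries each, the sign also changed for *Tlr4* in E7.2 (0.0628), *Cd180* in E7.2 (0.26), *Unc93b1* (-0.23), *Myd88* (0.11), *Irak4* (0.0321) and *Irf5* (-0.0821) in E6.2 and *Irak1* in E7.1 (0.00146). The cause was not tested beyond the libraries left out.

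The labels name no batch or day shared by a replicate number, and not every same-numbered pair correlated: deviations of a clone and parental cells gave r between -0.12 and 0.21, and same-numbered libraries of different lines averaged 0.053, beside -0.025 for different numbers. The third libraries of E6.2 and E7.2 had the highest r of any 2 lines, 0.43. The numbers were not taken as pairs. With the replicate block 0 of the 9 genes changed their call, *Cd180* in E7.1 against E6.2 differed by 1.37 (adjusted p = 0.0119), and 163 in place of 169 genes were called in E7.1 against parental cells. Over all genes, DESeq2 called 155 and 398 in E6.1 and E6.2, 1160 and 254 in E7.1 and E7.2, 2684 between the E7 and E6 clones and 3125 across lines, in place of 45, 163, 169, 41, 1677 and 873, and no filter gave 74 in E6.1, 343 in E7.1 and 1617 across lines. A fit of the 6 libraries compared called 111 in E6.1, 45 in E6.2 and 18 in E7.2. With E6.2 and E7.2 at 2 libraries each, 132, 323, 2166 and 219 genes were called in these clones, 4734 between the E7 and E6 clones and 4079 across lines. Leaving out 1 library gave, in the same order, 28 to 69, 83 to 228, 30 to 1011, 14 to 191, 399 to 3847 and 353 to 2899. Between single clones, DESeq2 called 448, 1511, 236, 968 and 287 genes in place of 173 (E6.2 against E6.1), 450 (E7.1 against E6.1), 49 (E7.2 against E6.1), 312 (E7.2 against E6.2) and 82 (E7.2 against E7.1), and E7.1 against E6.2 went from 2346 to 4982 with 2 libraries each. The call of *Ticam1*, *Irf9*, *Il10* and *Cd69* between the E7 and E6 clones was lost under the block (adjusted p of 0.0526, 0.0704, 0.0603 and 0.0661), as was that of *Cd69* in E7.1 against parental cells (0.0507). The 9 tested genes held 265 counts or more in every library, whereas a difference of *Tlr7* was not detectable at this depth.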
